A study of Homo sapiens with 3 samples.

Results

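The profile described here is the single microarray of A549 cells transfected with a control siRNA (siNC). Every probe set with 1 gene symbol in the platform's annotation was taken, and the brightest probe set in the siNC array stood for its gene. This gave 14884 genes, 11915 of them protein coding, from 16098 of the 53617 probe sets on the array. A549 is an established human lung cancer cell line, and RNA was taken 48 h after transfection with a lipid reagent. The series holds 2 further arrays, of A549 cells transfected for 48 h with an siRNA against TAZ (siTAZ) or YAP (siYAP), which serve here to show each gene's level on another array and not as a contrast. Each group had 1 array, so no value carries a replicate error and no test was made.

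A549 was derived from a lung adenocarcinoma and is widely used as a model of alveolar type II cells, the cuboidal cells of the alveolus that make surfactant and renew the alveolar lining. It is also a standard line for work on the NRF2 pathway. NRF2 is a transcription factor that switches on antioxidant, glutathione and detoxification genes, and KEAP1, its adaptor for degradation, is inactivated by mutation in this line. The line has also lost STK11, SMARCA4 and the CDKN2A locus.

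Levels are the deposited RMA values on a log2 scale. Over the 14884 genes the siNC level ran from 1.26 to 12.48, with a median of 5.43. With no detection call available, the level was read against the keratin-associated protein genes, which encode hair shaft proteins and serve as a yardstick for probe sets without a matching transcript. The 95th percentile of the 84 such genes, 5.93, is called the mark below. Of all named genes, 41.0% lay above the mark, 10.0% made up the top 10% (levels of 8.26 or more) and 27.7% lay under the median of all probe sets (4.28). Of the protein-coding genes, 48.7% lay above the mark and 12.2% in the top 10%, and every measured member of the lists below was protein coding. The percentile of a gene is the share of the 14884 genes below it, so the median percentile over all genes is 50. Over the protein-coding genes it was 57.8. The counts and median percentiles of the lists below are to be read against these protein-coding values. COPS7A and ICMT lay just under the limit of the top 10% (both 8.26), and ARHGAP5, ARNT and GSKIP just inside it (8.26, 8.27 and 8.27).

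**Figure D1:**
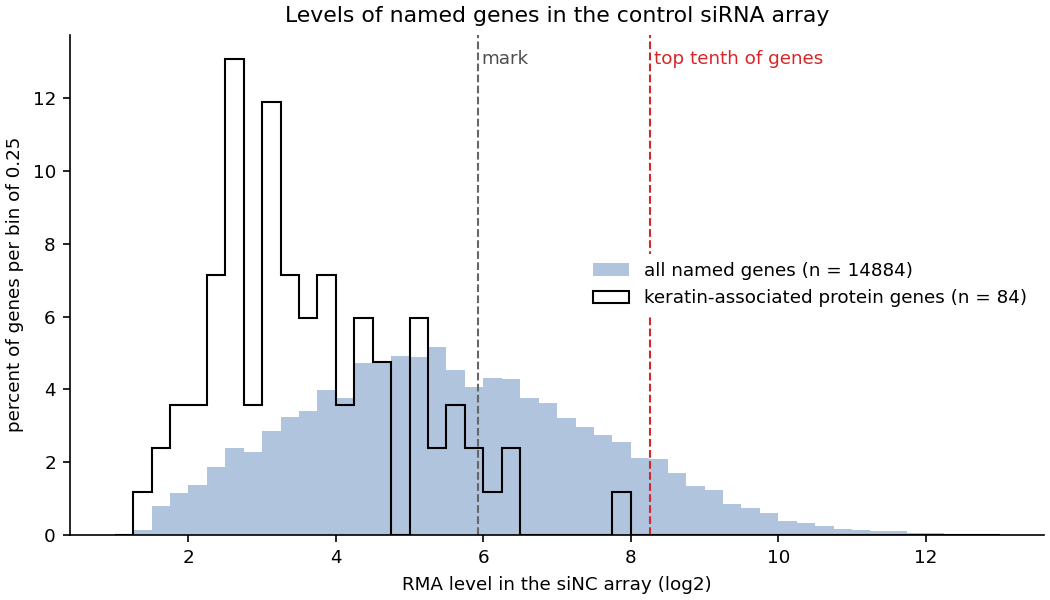
Share of genes (percent per bin of 0.25) against the RMA level in the siNC array (log2), for all 14884 named genes (filled) and the 84 keratin-associated protein genes (outline). The dashed lines are the mark at 5.93 and the limit of the top 10% at 8.26; the keratin-associated genes have a median of 3.42 and all named genes one of 5.43.

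Probe sets of 1 gene differed more from each other than 1 probe set did between arrays. The same probe set differed by a median of 0.016 (log2) between its lowest and highest of the 3 arrays, and by 0.41 at the 95th percentile of genes. For 54.8% of genes the siTAZ value, and for 56.8% the siYAP value, was identical to the siNC value, which keeps this median small, so an equal level on all 3 arrays is common and is not a replicate check. Of the 1488 genes in the top 10% of the siNC array, 1376 (92.5%) were in the top 10% of all 3 arrays. In contrast, the 779 genes with over 1 probe set had a median gap of 0.86 between their brightest and next probe set on the siNC array, and 182 of them (23.4%) had a gap over 2. Among the 333 of these genes whose brightest probe set lay above the mark, the median gap was 1.68, and the next probe set lay at or under the mark for 205. The widest gap was that of COX6A1, a subunit gene of cytochrome c oxidase, whose probe sets lay at 11.77 and 2.21. Ties also limited the order: 68.7% of genes at or under the mark shared their exact level with another gene, against 9.74% in the top 10%. A percentile is therefore a description of a probe set's brightness, and small differences in percentile between genes carry no weight.

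**Figure D2:**
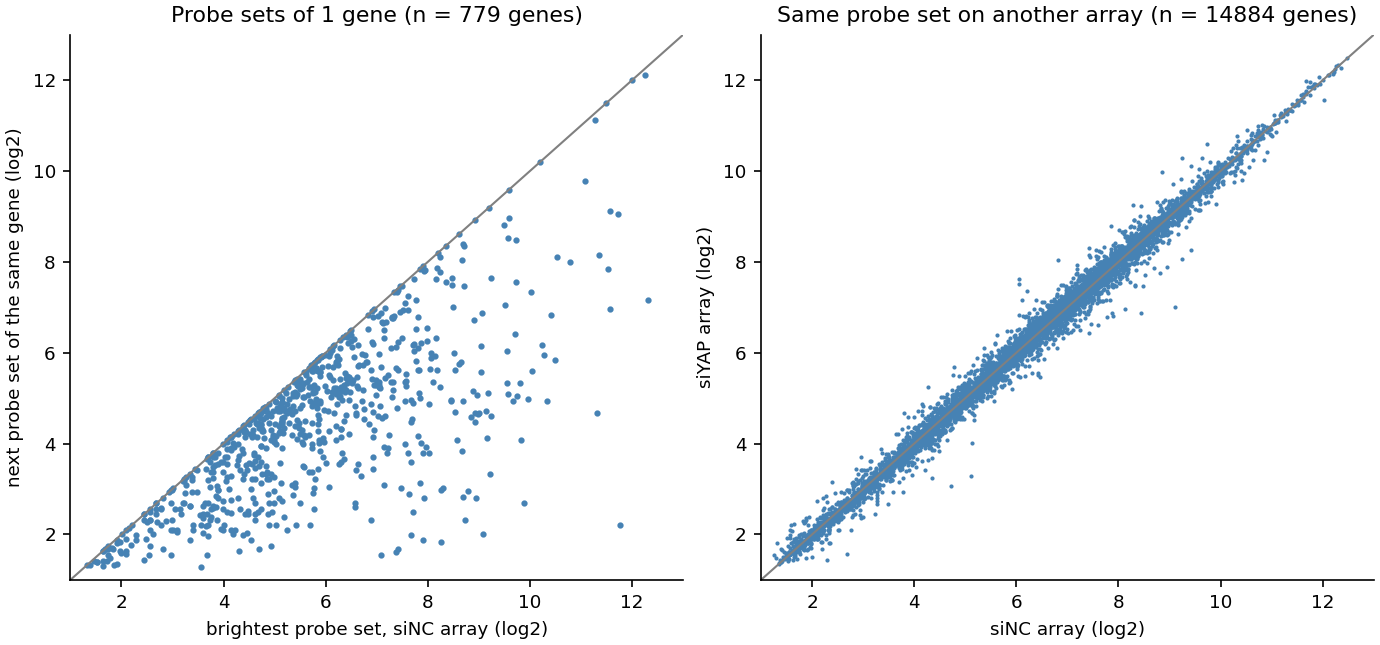
Left, level of the next brightest probe set against the brightest probe set of the same gene in the siNC array (log2) for 779 genes. Right, level in the siYAP array against the siNC array for the same probe set (log2) of 14884 genes. Grey lines mark equality; the points on the left fall up to 9.57 below it, whereas on the right most genes lie close to it.

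The brightest protein-coding genes combined secreted and surface proteins with housekeeping functions. CXCL5, a neutrophil-attracting chemokine, was the brightest (12.36, 12.31 and 12.26 in the siNC, siTAZ and siYAP arrays). SCD, the stearoyl-CoA desaturase that makes monounsaturated fatty acids, followed at 12.31, although its other probe set lay at 7.15. The calcium-dependent membrane-binding protein gene ANXA4 was at 12.25 on all 3 arrays. SPP1, which encodes the secreted phosphoprotein osteopontin, was at 12.20, and the transmembrane protein genes TM4SF4 and TM4SF1 at 12.12 and 12.03. The actin monomer-binding protein gene TMSB10 was at 12.10 and the translation elongation factor gene EEF2 at 11.93. UGDH, which makes UDP-glucuronate, was at 11.94, and the glycolytic isomerase gene GPI at 11.89. The mitochondrial chaperone gene HSPA9 was at 11.86 and the lysosomal protease gene CTSD at 11.83. The antioxidant genes PRDX1 and TXN were at 11.83 and 11.75, and the ribosomal protein genes RPS27 and RPL41 at 11.80 and 11.72. CEACAM6, a carcinoembryonic antigen family adhesion protein, was at 11.74 and NTS, the neuropeptide neurotensin, at 11.68. COX6A1 (11.77) and the fatty acid elongation gene HACD3 (11.68) completed the 20 brightest. Of these 20, HACD3 had the widest range over the 3 arrays (1.18), with its low value in the siTAZ array.

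Whole families behind these genes were then listed, a choice made after their values were seen. All 6 TM4SF genes lay above the mark and 3 in the top 10% (TM4SF4, TM4SF1 and TM4SF20 at 11.68). All 12 annexin genes lay above the mark and 6 in the top 10%, with ANXA1 at 11.46, ANXA13 at 10.98 and ANXA5 at 10.53. The other chemokine genes stood far below CXCL5. Of the 13 CXC chemokine genes, 3 lay above the mark, CXCL16 followed at 7.57 and CXCL2 at 6.31, and CXCL8 was at 5.13, under the mark. Of the 11 CEACAM genes, 4 (36.4%, against 48.7% of protein-coding genes) lay above the mark, with CEACAM5 at 9.41 behind CEACAM6. Among 15 cathepsin genes 9 lay above the mark and 5 in the top 10%. None of the 20 genes with a symbol starting with S100 was in the top 10%, and the highest, S100A11, was at 7.94. These 20 include S100PBP (4.58), which encodes a binding protein of S100P and not an S100 protein.

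Markers of alveolar type II cells were mostly dim. Of the 17 on the list 14 had a level, with a median percentile of 37.0, and 12 of these lay at or under the mark. The surfactant protein genes SFTPA2, SFTPC, SFTPD and SFTPB lay at 5.10, 5.04, 5.02 and 4.88, and SFTPA1 was the lowest of the list at 2.81. NKX2-1, the transcription factor that specifies lung epithelium, was at 4.61 (percentile 33.9), with a second probe set at 3.22. The aspartic protease gene NAPSA, which processes surfactant protein B, was at 4.09, 3.96 and 4.23 in the siNC, siTAZ and siYAP arrays. The 2 members above the mark were SCD and LPCAT1, an acyltransferase that makes surfactant lipid (8.17). Both are lipid enzymes that many other cell types also express. The other 12 measured markers lay at or under the mark, and 3 of the list were not analysed here.

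Markers of other lung epithelial cells gave a mixed picture. Of 8 alveolar type I markers, 1 lay above the mark (EMP2, a membrane protein, at 6.99). AGER and AQP5 were at 5.75 and 5.37, and the water channel gene AQP4 was the lowest at 2.56. Of 14 airway secretory markers listed 6 had a level, and the secretoglobin and mucin genes of the list had none. Of these 6, 4 lay above the mark: the protease inhibitor gene SLPI at 10.30, the secretory cell transcription factor gene SPDEF at 8.26, the disulfide isomerase gene AGR2 at 7.83 and the iron-binding lipocalin gene LCN2 at 6.06. PIGR, the receptor that carries IgA across the epithelium, was at 3.90. None of 8 basal and squamous markers reached the mark, and their levels ran from 2.41 (KRT5) to 5.77 (SOX2). Of 7 ciliated cell markers, TPPP3 (6.50) and FOXJ1 (5.99) lay above it, the second by less than 0.1. CAPS was at 5.62 and CCDC39 at 2.32.

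Of 11 neuroendocrine markers measured, 4 lay above the mark (36.4%) and 1 in the top 10% (9.09%). These shares were under those of protein-coding genes (48.7% and 12.2%) and nearer those of all genes (41.0% and 10.0%). The 4 were UCHL1, a ubiquitin hydrolase (8.66), the amine-synthesising decarboxylase gene DDC (7.45), the granin gene CHGB (6.63) and the bombesin-like peptide gene GRP (6.41). INSM1, the transcription factor that marks neuroendocrine identity, was at 5.13, CHGA at 4.87 and SCG3 the lowest at 2.26. UCHL1 and DDC are also expressed outside neuroendocrine cells.

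Among transcription factors of endoderm, the tissue layer that gives rise to lung, liver and gut, 7 of 11 lay above the mark. SOX9, a progenitor factor of the distal lung bud, was the highest (9.17, 9.14 and 9.23 in the siNC, siTAZ and siYAP arrays), followed by KLF5 (9.10). The pioneer factor gene FOXA2 was at 7.74, GATA6 at 6.44, FOXA3 at 6.40 and FOXA1 at 6.06. GATA4 was the lowest at 4.40, and the intestinal factor gene CDX2 was at 5.34. Across complete families, SOX9 was the highest of 19 SOX genes, of which 5 (26.3%) lay above the mark, against 48.7% of protein-coding genes. Of 46 GATA and forkhead genes, 19 (41.3%) lay above the mark, also under that share. FOXN2 at 8.46 was the one in the top 10%, followed by FOXM1 (8.22) and FOXA2. This is 2.17% of the 46, against 12.2% of protein-coding genes. Of 27 HOX genes, which pattern the body axis, 4 (14.8%) lay above the mark. They were led by HOXB6 (6.79), HOXB7 (6.36) and HOXC13 (6.27), and HOXD13 was the lowest of the 27 at 2.98.

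Genes whose products are secreted by hepatocytes or gut ran from 2.56 to 11.40. Of 21 measured, 7 lay in the top 10%, 9 above the mark and 12 at or under it. The 3 fibrinogen chain genes were the brightest. FGA was at 11.40 in the siNC array, FGB at 11.35 and FGG at 10.37. On the siTAZ and siYAP arrays FGG was at 10.24 and 10.26. They were followed by APOH, a phospholipid-binding plasma protein (9.93), the complement gene C3 (9.79), the adhesive plasma protein gene VTN (8.69) and the trefoil factor gene TFF1 (8.43). The classical hepatocyte genes were dim: ALB, which encodes albumin, was at 5.51, TTR at 5.58, APOA1 at 4.44, APOB at 4.15 and AFP, the fetal albumin relative, the lowest at 2.56. A second family of 31 measured acute-phase, complement and coagulation genes made in liver was chosen after the values were seen. It shared members with this list, but FGA, FGB, FGG, APOH and VTN were not among them. Of the 31, 9 lay above the mark, and the median percentile was 28.4. The copper oxidase gene CP was at 10.73, C5 at 9.27, the complement factor I gene CFI at 8.93 and ITIH2 at 8.38, whereas PLG, F9 and HPX were at 3.90, 2.97 and 4.31.

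The fibrinogen genes lie side by side on chromosome 4 and are regulated in liver through HNF1, C/EBP and interleukin-6 response elements, so the 250 bases before each start are shown because all 3 were in the top 10%. The motifs were chosen after the levels were seen. They are from RefSeq, build GRCh38.p14, at chr4:154590743-154590992 on the - strand (FGA), chr4:154562730-154562979 on the + strand (FGB) and chr4:154612657-154612906 on the - strand (FGG), written 5′ to 3′ on the gene strand. Capitals mark matches on either strand to GTTAAT (an HNF1 half-site), TTGCNNAA (C/EBP) and CTGGGAA (interleukin-6 response), none of which overlap here.
FGA: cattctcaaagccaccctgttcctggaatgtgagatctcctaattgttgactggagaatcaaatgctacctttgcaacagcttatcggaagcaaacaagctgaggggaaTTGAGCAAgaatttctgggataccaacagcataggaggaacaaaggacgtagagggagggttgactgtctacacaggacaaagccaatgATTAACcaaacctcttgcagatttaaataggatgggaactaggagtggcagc
FGB: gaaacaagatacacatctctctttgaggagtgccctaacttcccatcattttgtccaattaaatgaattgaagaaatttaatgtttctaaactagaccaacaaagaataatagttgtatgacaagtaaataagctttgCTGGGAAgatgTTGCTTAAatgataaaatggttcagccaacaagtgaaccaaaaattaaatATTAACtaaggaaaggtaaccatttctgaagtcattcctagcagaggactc
FGG: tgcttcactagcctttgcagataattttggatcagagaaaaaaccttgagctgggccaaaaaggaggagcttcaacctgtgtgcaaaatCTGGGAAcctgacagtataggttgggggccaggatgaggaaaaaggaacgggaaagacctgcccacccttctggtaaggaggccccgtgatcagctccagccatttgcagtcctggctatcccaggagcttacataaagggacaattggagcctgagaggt

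FGA held a GTTAAT match on the opposite strand at positions -52 to -47 before the start and FGB one at -51 to -46, and FGG held none. FGA and FGB also held TTGCNNAA, and FGB and FGG held CTGGGAA. Over the 250-base windows of all 9707 protein-coding genes with a level, 4.14% held GTTAAT, 6.99% TTGCNNAA and 9.99% CTGGGAA. Of the 11 hepatocyte and gut genes with a promoter in the table, 5 held GTTAAT, 6 TTGCNNAA and 2 CTGGGAA, the last being FGB and FGG themselves. Matches were not confined to the bright genes: ALB and AFP, both under the mark, held both GTTAAT and TTGCNNAA. A match shows these letters and not a bound site.

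Epithelial markers were more often above the mark than not. Of 22 measured, 15 lay above it and 5 in the top 10%, with a median percentile of 72.4. The tight junction scaffold gene TJP1 was at 9.80, the plakoglobin gene JUP at 9.43 and the claudin gene CLDN1 at 8.98, with the desmosome linker gene DSP also in the top 10%. EPCAM, an epithelial adhesion protein, was at 8.23. ESRP1, an epithelial splicing regulator, was the lowest at 3.80, and the epithelial factor gene GRHL2 was at 4.43. KRT18, a keratin of simple epithelia, was at 11.56, but this value rested on 1 of its 2 probe sets, and the other was at 6.96. Its partner KRT8 was at 6.50, KRT7 at 6.51 and KRT19 at 6.44. Over the 47 keratin genes measured, 5 lay above the mark, the other one being KRT80 (7.40).

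Of 13 mesenchymal markers, 5 (38.5%) lay above the mark, against 48.7% of protein-coding genes. The fibronectin gene FN1 alone was in the top 10% (10.32, 10.24 and 10.28 in the siNC, siTAZ and siYAP arrays). VIM, the intermediate filament vimentin, had 3 probe sets at 6.84, 6.52 and 6.34. S100A4 was at 6.45 and the transcriptional repressor gene ZEB1 at 6.30. SNAI1 and SNAI2 were both under the mark, at 5.47 and 5.49, and ZEB2 was at 4.83. TWIST1 and TWIST2, both at 3.90, were the lowest.

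Markers of cells other than epithelium were mostly at or under the mark, although the medians of the leukocyte (4.53) and endothelial (4.13) lists were above the median of the keratin-associated protein genes (3.42). Of 13 leukocyte markers, 12 lay at or under the mark. The exception was CD68, a lysosomal membrane protein, at 8.43, with higher levels on both other arrays (9.02 in the siYAP array). CD8A (5.67) and TYROBP (4.86) came next, and CD53 was the lowest at 3.64. None of 10 endothelial markers reached the mark, from EMCN at 2.32 to CLDN5 at 5.33, with VWF at 4.42 and PECAM1 at 3.60. Of 4 fibroblast and muscle markers, LUM (7.45) and DES (6.45) lay above it, THY1 was at 5.22 and DCN at 2.38. A second DES probe set lay at 4.97. The 2 erythroid markers, KLF1 (5.10) and AHSP (3.90), lay under it.

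**Figure D3:**
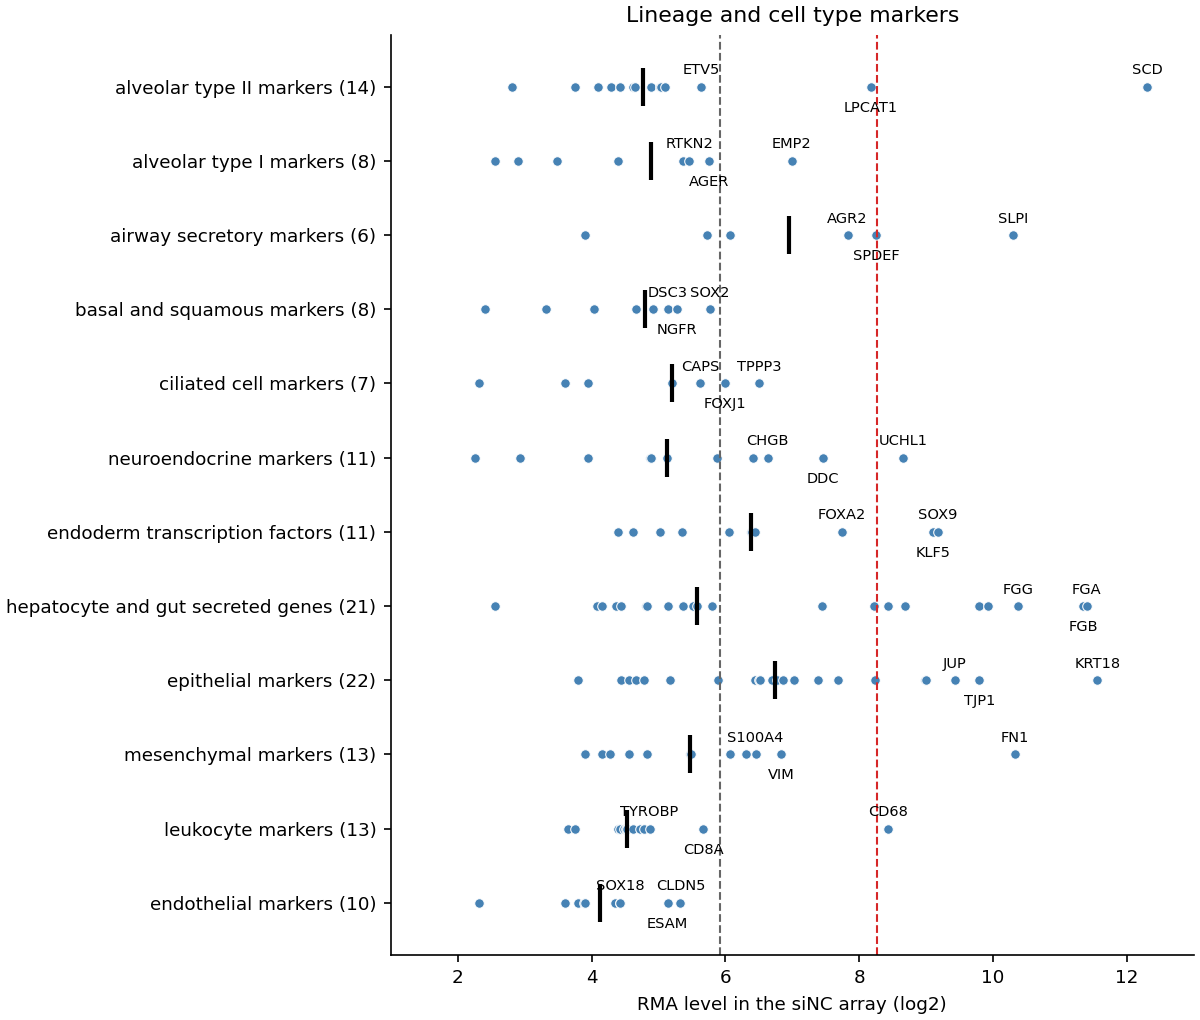
RMA level in the siNC array (log2) of each measured member (points) of 12 lineage and cell type lists, with the number measured in parentheses, the median as a bar and the 3 highest members named. Dashed lines are the mark (5.93) and the limit of the top 10% (8.26); the alveolar type II, leukocyte and endothelial lists lie mostly left of the mark, while 7 hepatocyte and gut genes lie right of the second line.

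NRF2 targets had a median percentile of 93.2, near that of the TCA cycle list (91.6). On the siYAP array the order of the 2 lists was the reverse (93.0 and 93.3). Of the 42 genes on the list 20 had a named probe set, of which 11 lay in the top 10%, 17 above the mark and 3 at or under it. The list was chosen with earlier results of these data known, and its measured members are those left by the annotation. UGDH (11.94) and the peroxiredoxin gene PRDX1 (11.83) led it. The small disulfide reductase gene TXN was at 11.75, and the pentose phosphate enzyme genes TKT and PGD were at 11.57 and 11.12. The glutathione reductase gene GSR was at 10.98 and the biliverdin reductase gene BLVRB at 10.77. The haem oxygenase gene HMOX1 was at 9.96, and SRXN1, which repairs peroxiredoxins, at 9.37. GPX2, a glutathione peroxidase of epithelia, was at 8.95 in the siNC array and 9.05 in both other arrays. TXNRD1, the thioredoxin reductase, was at 8.48, 8.34 and 8.35 in the siNC, siTAZ and siYAP arrays. CBR3, CES1 and GSTM3 lay at or under the mark (5.29, 4.42 and 3.94). KEAP1 itself was at 8.39.

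NRF2 binds antioxidant response elements, whose core can be written TGACNNNGC. RefSeq promoters were in the table for 15 of the 20 genes, and the core was found on either strand in the 250 bases before the start of 5 of them, PGD, TXNRD1, GPX2, FECH and CBR1. The stretches around these matches are shown with the core in capitals (GRCh38.p14, 5′ to 3′ on the gene strand), at chr1:10398838-10398896, chr12:104215655-104215713, chr14:64942834-64942892, chr18:57586707-57586765 and chr21:36069840-36069898, in the same order.
PGD: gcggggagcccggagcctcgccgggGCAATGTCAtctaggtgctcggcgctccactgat
TXNRD1: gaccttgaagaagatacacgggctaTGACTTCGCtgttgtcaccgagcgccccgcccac
GPX2: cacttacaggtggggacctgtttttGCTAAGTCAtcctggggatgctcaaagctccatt
FECH: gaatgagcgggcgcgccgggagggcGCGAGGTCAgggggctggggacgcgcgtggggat
CBR1: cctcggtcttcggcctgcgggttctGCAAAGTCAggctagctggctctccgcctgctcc

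The TXNRD1 match read along the gene strand and the other 4 along the opposite strand. The core was present in 11.7% of all 9707 windows and in 14.2% of the windows of genes in the top 10%. Of the 8 NRF2 targets with a promoter and a level in the top 10%, 3 held it, and of the 7 others 2 did. The looser form TGANNNNGC, which includes the core, was in 8 of 15 windows against 35.8% of all. UGDH, the brightest target, held the looser form and TXN, TKT, BLVRB and SRXN1 held neither, as did SQSTM1, TALDO1 and GSTM3 of the dimmer ones; elements that lie further from the start are outside these windows.

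The redox enzymes next to these targets varied by member. Of 13 glutathione peroxidases and peroxiredoxins, 5 lay in the top 10%: PRDX1, the mitochondrial PRDX3 (11.43), PRDX6 (9.94), GPX4, which reduces lipid peroxides (9.23), and GPX2. GPX1 was at 6.51 and PRDX2 at 4.67. Of 20 glutathione transferases, 7 lay above the mark and 1, GSTP1, in the top 10% (10.40 on all 3 arrays). The membrane-bound MGST1 (8.05) and the mitochondrial and peroxisomal GSTK1 (7.76) came next, and GSTA5 was the lowest at 2.09.

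In central carbon metabolism the lists differed in how many genes were measured and above the mark. Of the 30 genes of the TCA cycle list 12 had a level, and all 12 lay above the mark and 6 in the top 10%. These 12 do not cover the whole cycle, and they include ACLY, PC and the pyruvate dehydrogenase genes PDHA1, PDHB and DLAT. ACLY, which makes cytosolic acetyl-CoA, was at 11.52, and IDH3G, DLD and OGDH at 9.89, 9.44 and 9.37. The pyruvate carboxylase gene PC was at 6.90 and IDH3A was the lowest at 6.44. In the pentose phosphate pathway 7 of 11 lay above the mark, with TKT and PGD ahead of the phosphoribosyl pyrophosphate synthetase genes PRPS2 (9.80) and PRPS1 (7.67). The transketolase-like genes TKTL1 (3.60) and TKTL2 (2.32) were far under the mark. In glycolysis 7 of 10 measured genes lay above it, with GPI at 11.89, LDHB at 8.50 and PGK1 at 8.33. LDHA was at 7.35, GAPDH at 6.60 and TPI1 at 5.92, and 22 of the 32 genes of this list had no level here. Of 9 gluconeogenesis and glycogen genes, 5 lay above the mark, led by PGM1 (8.01) and PGM2 (7.98), with the mitochondrial PCK2 at 6.32 and the cytosolic PCK1 at 5.09.

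Amino acid and iron pathways each had members in the top 10%. These were 3 of 15 genes in the serine and one-carbon list and 2 of 12 in the glutamine, urea cycle and arginine list. The iron and haem list had 5 of 15. Of all protein-coding genes 12.2% lay in the top 10%, so the serine and glutamine counts were near that share for so few genes. The share of the glutamine list above the mark, 41.7%, was under the 48.7% of protein-coding genes, and the shares of the other lists were over it. In serine and one-carbon metabolism, 10 of 15 genes lay above the mark. PSAT1, the transaminase of serine synthesis, was at 10.62, 10.73 and 10.69 in the siNC, siTAZ and siYAP arrays. TYMS (8.87), AHCY (8.33), MTR (8.19), PSPH (7.86) and the glycine decarboxylase gene GLDC (7.79) followed, and PHGDH, the first enzyme of the pathway, was at 6.76. In glutamine, urea cycle and arginine metabolism 5 of 12 lay above the mark, with the ornithine aminotransferase gene OAT at 8.46, the argininosuccinate enzyme genes ASS1 and ASL at 8.44 and 7.70, and the liver enzyme gene OTC at 2.81. Of 15 iron and haem genes, 12 lay above the mark. BLVRB, CP and HMOX1 led them, followed by the haem exporter gene FLVCR1 (8.77) and BLVRA (8.57).

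**Figure D4:**
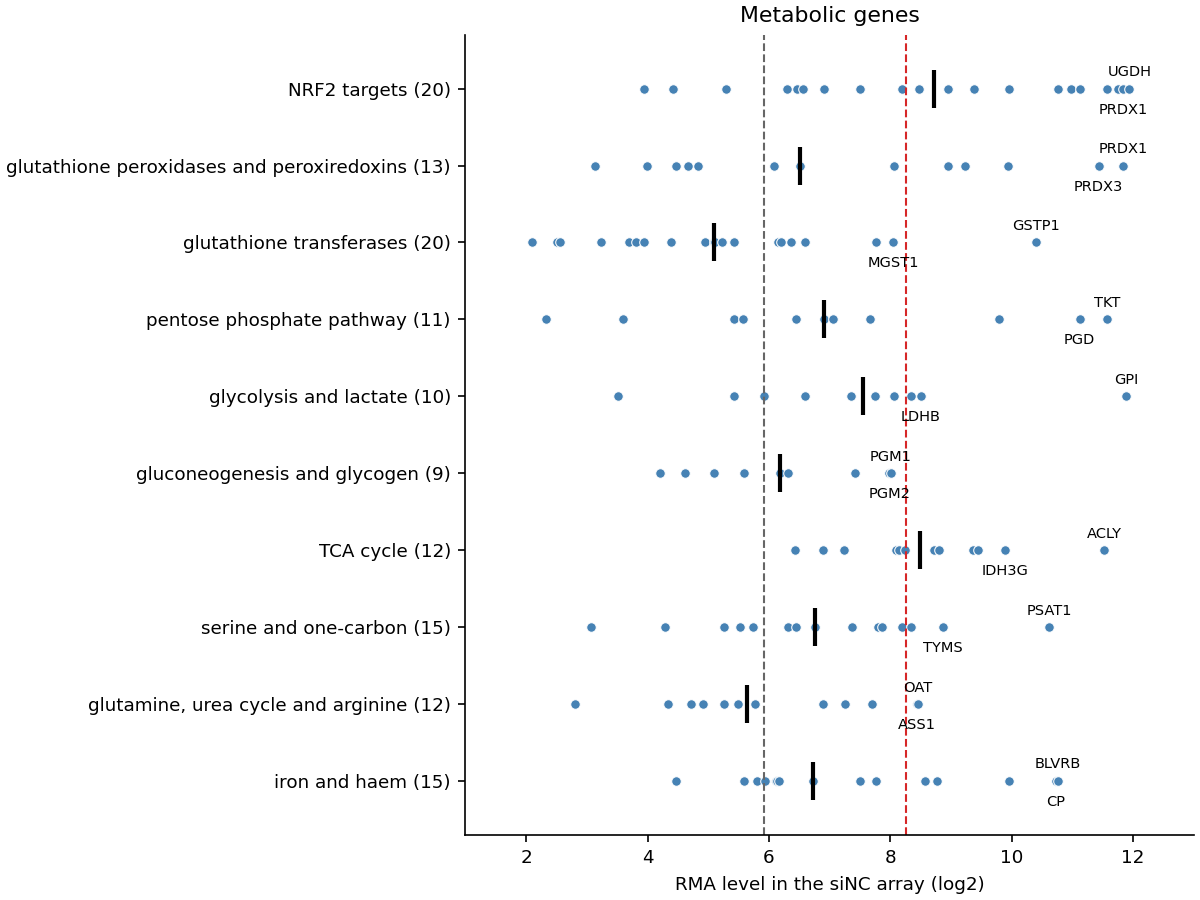
RMA level in the siNC array (log2) of each measured member (points) of 10 metabolic lists, with the number measured in parentheses, the median as a bar and the 2 highest members named. Dashed lines are the mark (5.93) and the limit of the top 10% (8.26); the median of the NRF2 targets (8.71) and of the TCA cycle list (8.48) lie right of the second line.

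Receptor tyrosine kinases are surface receptors for growth factors, and their levels ran from 2.89 to 10.24. Of 48 measured, 15 lay above the mark and 33 at or under it, with a median percentile of 40.0. The share in the top 10% (8.33%) was near the 10.0% of all genes and under the 12.2% of protein-coding genes. MET, the receptor for hepatocyte growth factor, was the highest (10.24, 10.11 and 9.98 in the siNC, siTAZ and siYAP arrays). AXL, the receptor for GAS6, was second in the siNC array at 9.24, and at 7.78 and 8.06 in the other arrays, where it was no longer in the top 10%. EGFR was at 8.99, 8.46 and 8.85, and the insulin-like growth factor receptor gene IGF1R at 8.78, 8.53 and 8.58. These 4 made up the members in the top 10%, and the order of AXL among them held for the siNC array alone. Next came EPHA2 (8.17), LMTK2 (8.05), FGFR4 (7.95), the collagen receptor gene DDR1 (7.90), ROR1 (7.83) and RYK (7.83). On the siTAZ and siYAP arrays ROR1 was at 6.97 and 7.16. ERBB3 was at 6.98 and ERBB4 at 4.15. FGFR1, FGFR2 and FGFR3 were under the mark at 5.39, 4.80 and 5.34, as were KIT (5.46), ALK (4.45) and RET (4.05). EPHA3 was the lowest at 2.89.

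**Figure D5:**
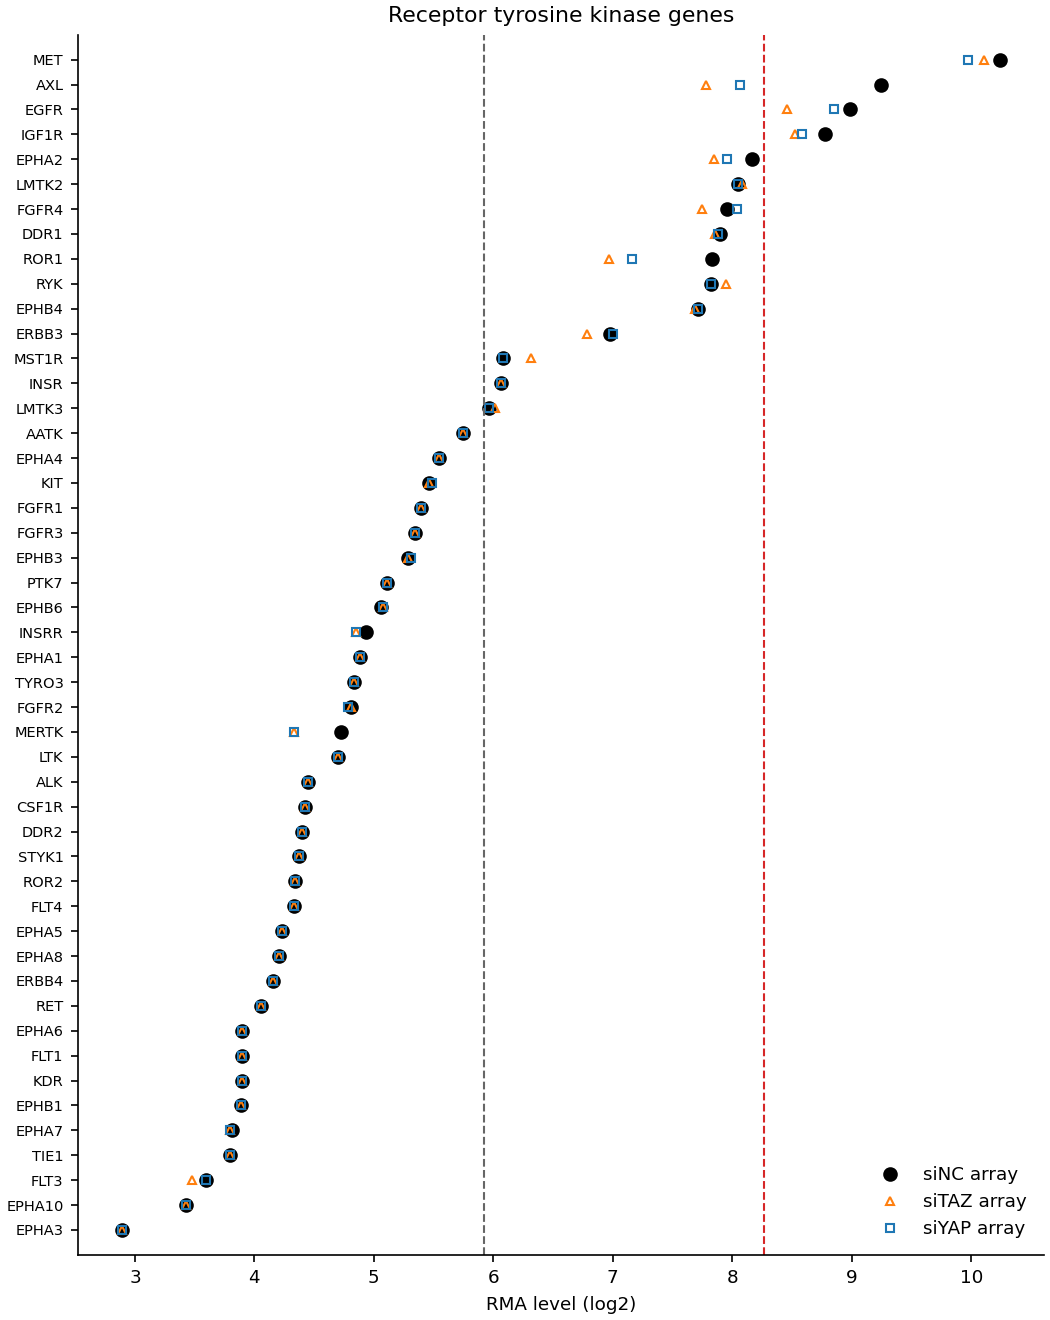
RMA level (log2) of 48 receptor tyrosine kinase genes, ordered by their level in the siNC array (filled circles), with the siTAZ (triangles) and siYAP (squares) arrays. Dashed lines are the mark (5.93) and the limit of the top 10% (8.26); MET, AXL, EGFR and IGF1R lie right of the second line in the siNC array, and AXL is left of it in both other arrays.

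Ligands of these receptors were counted in the same way. Of 9 ERBB ligand genes, 3 lay above the mark: EREG, which encodes epiregulin (8.55 in the siNC and siTAZ arrays and 7.98 in the siYAP array), NRG1 (6.70) and NRG4 (6.61). EPGN was the lowest at 3.22 and EGF was at 4.42. Among 17 further ligand genes, 8 (47.1%) lay above the mark, near the 48.7% of protein-coding genes. They were led by PROS1 (8.81), a plasma cofactor that also binds the AXL family, PDGFD (7.80) and PDGFA (7.77). VEGFA was at 6.73. HGF, the ligand of MET, was under the mark on all 3 arrays (4.34 in the siTAZ and siYAP arrays), and GAS6 was at 5.80, also under it.

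Other receptor classes differed in their counts. The list of eicosanoid, purine, lysolipid and protease receptors coupled to G proteins also held bradykinin, adrenergic, histamine and oxytocin receptors. Of its 26 measured genes, none was in the top 10% and 7 lay above the mark. Those 7 included BDKRB2 (7.28), OXTR (6.53) and ADRA1B (6.38) of the other classes. The highest were the adenosine receptor gene ADORA2B (8.09), the lysophosphatidic acid receptor gene LPAR1 (7.76, with a second probe set at 5.82) and F2RL2, a protease-activated receptor (7.42, and 6.22 and 6.43 on the siTAZ and siYAP arrays). The lowest was LPAR4 at 2.81. Of 48 listed nuclear receptors 11 had a level, and 4 of these lay above the mark, within a narrow range: ESRRA (6.65), PPARA (6.28), PPARG (6.22) and PPARD (6.17). The oestrogen receptor genes ESR1 and ESR2 were at 3.33 and 3.26. Toll-like receptors, other sensors of microbial molecules and their adaptors made up a list of 20 measured genes. Of these, 4 lay above the mark: the RNA sensor gene RIGI at 7.39, TLR6 at 6.03 and the adaptor genes MYD88 at 6.44 and TICAM1 at 5.99. TLR4 was at 5.03, TLR2 at 4.15 and the TLR4 co-receptor gene LY96 the lowest at 2.09. In the list of virus entry receptors and proteases, 13 of 18 lay above the mark and 6 in the top 10%. The desmoglein gene DSG2, an adenovirus receptor, was at 10.01, the poliovirus receptor gene PVR at 9.26 and the neuropilin gene NRP1 at 9.18. AXL, the protease gene CTSL and CLDN1 were the others in the top 10%. CDHR3, a rhinovirus C receptor, was the lowest at 3.85. Of the 2 measured members of the death receptor list, FADD was at 7.81 and CFLAR at 6.12.

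Of the 7 genes listed as altered in A549, 4 had a named probe set. CDKN2A, which encodes cell cycle inhibitors and is deleted in this line, was at 4.15 on all 3 arrays (percentile 25.7). MTAP, the methylthioadenosine phosphorylase next to it, was at 5.36 on all 3 arrays, a level that 51 genes shared exactly. Both lay under the mark. Of the neighbours with a level in gene order, KLHL9 on the MTAP side was at 7.97 and FOCAD beyond it at 7.83, with HACD4 between them at 4.73, under the mark. DMRTA1 on the other side was at 6.03, TUSC1 at 5.61 and CAAP1 at 7.79. STK11, a kinase gene inactivated by mutation in this line, was at 6.09, above the mark, and KEAP1 was at 8.39, in the top 10%. A mutation that leaves the transcript in place is not seen by an array.

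Of 16 listed cell cycle genes of the p53 and RB pathways 10 had a level, of which 8 lay above the mark and 4 in the top 10%. On the p53 side MDM4 alone had a level (7.47). CCND1 (9.06), RB1 (8.68) and CDK4 (8.59) were the highest, RBL1 was at 8.35 and CDK6 at 8.02. CCND3 (5.62) and CCND2, the lowest, lay under the mark. Of 22 listed SWI/SNF chromatin remodelling subunits 7 had a level, and SMARCA4 and SMARCA2 had none. Of the 7, 6 lay above the mark, led by PBRM1 (8.45), BRD7 (8.40) and PHF10 (7.76), and the neuronal subunit gene ACTL6B was at 3.80. Of 5 cancer-testis antigens, PRAME lay above the mark (6.95), followed by CTAG2 (5.43), TEX14 (3.94) and SYCP1, the lowest (2.41).

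The reference genes show how far a level can stand from the usual picture of a transcript. Of 7 measured, B2M was at 8.60, PGK1 at 8.33, HPRT1 at 8.31 and TBP, a scarce transcription factor transcript in most cells, at 7.40. PPIA (6.78), GAPDH (6.60) and EEF1A1 (5.58), which encode some of the most abundant mRNAs of cultured cells, were all below TBP, and EEF1A1 was under the mark. Ribosomal proteins are assembled in equal numbers, and the levels of the 52 measured genes ran from 2.75 (RPL10L, a testis paralogue) and 4.15 (RPL31) to 11.80 (RPS27), with 15 in the top 10% and 15 at or under the mark. The equal numbers need not hold for paralogues, and the 15 at or under the mark also included the paralogue genes RPL39L (5.63), RPL3L (5.36), RPL22L1 (5.29) and RPS27L (5.05). Several transcribed pseudogenes were brighter than the gene they are named after. ANXA2P2 was at 12.22 (rank 6 of 14884) and ANXA2 at 7.06, HNRNPA1P10 at 11.52 and HNRNPA1 at 6.42, and CHORDC1P4 at 10.79 and CHORDC1 at 5.17. For genes with near-identical copies the level of either is therefore uncertain, and what the probe sets hybridise to was not tested.

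Protein-coding genes made up most of the bright end. Of 1488 genes in the top 10%, 1448 were protein coding, which is 12.2% of the protein-coding genes, against 0.93% of 1398 long non-coding RNA genes and 0.653% of 1072 microRNA genes. The brightest named gene of all was RMRP, the RNA of the RNase MRP ribonucleoprotein (12.48 on all 3 arrays). MALAT1, a nuclear long non-coding RNA, was at 11.08 and NORAD, which binds Pumilio proteins, at 10.49. The 37519 unnamed probe sets had a median of 3.80, and 16.9% of them lay above the mark.

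Promoter composition changed along the range of levels. The 9707 protein-coding genes with a RefSeq promoter were put into 10 classes of 965 to 976 genes by siNC level, and the 250 bases before the start were read. In the lowest class (levels up to 3.49) the median window held 5 CG pairs and 50.4% G and C, and 20.3% of windows held TATAAA on either strand. In the fifth class (5.43 to 5.94) the medians were 20 CG pairs and 65.2%, and in the highest class (8.54 and above) 22 CG pairs and 65.2%, with TATAAA in 5.46% of windows. From the sixth class to the highest, the median number of CG pairs stayed at 22. Across genes, which are not independent replicates, the Spearman correlation of the number of CG pairs with the level was 0.37. The base composition of the probes, which also bears on brightness, was not examined.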

How the data were processed

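Total RNA (500 ng) of A549 cells was labelled for 1-colour Affymetrix whole-transcript arrays, per the labels' protocols. The deposited values are RMA levels, per the submitters' processing notes, and the log2 scale was read from their range (0.97 to 13.51 in the siNC array) because the authors' notes do not name it. RMA quantile normalization removes differences in total RNA. The software version, like the build behind the annotation, was not given in the sources used here.

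Probe sets were named from the platform annotation (16098 with 1 symbol, 0 with several, 37519 unnamed), and all 16098 Entrez identifiers matched RefSeq GRCh38.p14. The brightest probe set in the siNC array stood for its gene, with no filter on low values. Members and lists were chosen with earlier results of these data known. There were 51 lists and families, of which 7 had no named probe set and are not analysed here, and 8 families were added after the values were seen. The mark was planned on olfactory receptor genes, of which 0 were named, so keratin-associated protein genes were used. Named genes were the 20 brightest protein-coding genes, the 3 highest members of each list, the lowest member of lineage, receptor and altered-gene lists, and 37 fixed genes, of which 21 had a level; other members are examples chosen after their values were seen. Promoters were matched by Entrez identifier for 10749 genes, and those of protein-coding genes were searched. In simulated data, 60 list members were planted among the brightest genes, and all 60 were counted there. This recovery was fixed by the planting, so it checks the counting code alone and not the ranking of real genes. The number of arrays limits the precision. Python 3.11.15, numpy 2.4.6 and pandas 2.3.3 were used.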

Additional observations from a re-analysis of the deposited data

How the results depend on the processing

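Counts of members in the top 10% or above the mark were recomputed for 8 main lists under 6 other ways of ranking and 2 other marks, the marks being chosen after seeing the data. Of these recomputed counts 58 stayed within 1.5 times the reported one and 6 did not. With all probe sets of the array ranked, 11 receptor tyrosine kinases and 2 alveolar type II markers were in the top 10%, against 4 and 1. With protein-coding genes alone ranked, or with genes under the median of all probe sets left out, 0 leukocyte markers were in the top 10%, against 1. With the mark at the 99th percentile of the keratin-associated protein genes (6.69), 2 mesenchymal markers lay above it, against 5, and with the 90th percentile (5.51) 2 leukocyte markers did, against 1. For the other lists 301 recomputed counts stayed within 1.5 times and 51 did not. With the mark at 6.69, no nuclear receptor (highest 6.65) and no ciliated cell marker (highest 6.50) lay above it. Among the endoderm factors GATA6 (6.44), FOXA3 (6.40), SOX17 (6.38) and FOXA1 (6.06) then lay under it. Marks at the 95th and 99th percentile of olfactory receptor genes were not run, since 0 of these genes had a named probe set. With 1 array per group no left-out replicate and no replicate error could be given.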
